A study of Mus musculus with 6 samples.

Results

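The 10 genes described here encode the core machinery of the G1 phase: the D-type cyclins Ccnd1, Ccnd2 and Ccnd3, their kinases Cdk4 and Cdk6, the E-type cyclins Ccne1 and Ccne2, their kinase Cdk2, and the CDK inhibitors Cdkn1b and Cdkn2c. They were chosen by name, with earlier results of these data known, and all 10 were found among the 28262 genes listed in the count table. RNA-seq was performed on Sertoli cells isolated from 20-day-old C57BL/6 mice, with 3 Pa1F/F libraries as the control and 3 Amh-pa1-/- libraries. Both genotypes carried floxed Pa1 alleles, and in Amh-pa1-/- mice these were deleted by Cre under the Amh promoter, which is active in Sertoli cells of the testis, so that other testicular cells kept the floxed gene. PA1 is a component of the MLL3/4 histone methyltransferase complex. Its own transcript was not analysed here, so the genotypes rest on the labels. The isolated cells were enzymatically dispersed, cultured and washed to remove germ cells before RNA extraction.

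In G1, D-type cyclins bind CDK4 or CDK6 and E-type cyclins bind CDK2. These kinases phosphorylate the retinoblastoma family of pocket proteins, which releases E2F transcription factors and opens the way to S phase. INK4 inhibitors such as the product of Cdkn2c bind CDK4 and CDK6, while KIP inhibitors such as the product of Cdkn1b act mainly on cyclin E-CDK2. Sertoli cells proliferate in fetal and early postnatal life and normally leave the cell cycle before puberty is complete. Cyclin D2 is the D-type cyclin best known in testicular somatic cells, and Cdkn1b and the related inhibitors are known to restrain Sertoli cell proliferation.

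Of the 10 genes, 5 rose in Amh-pa1-/- Sertoli cells (Ccne1, Ccne2, Cdk2, Ccnd3 and Cdkn2c), 1 fell (Ccnd1), and 4 did not pass the test (Ccnd2, Cdk4, Cdk6 and Cdkn1b). A gene passed at a Benjamini-Hochberg adjusted p under 0.05 in edgeR's quasi-likelihood test over 14919 tested genes. For comparison, 18.2% of all tested genes passed as higher and 17.1% as lower. Ccne2 and Cdkn2c also changed by at least 1 on the log2 scale, as 5.44% of tested genes did among those higher, and Ccnd1 did so among those lower, as did 6.56% of tested genes. The normalized counts of the genotypes did not overlap for 7 of the 10 genes, against 52.4% of tested genes. The median log2 fold change was 0.34 over the 10 genes and 0.00 over all tested genes.

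**Figure D1:**
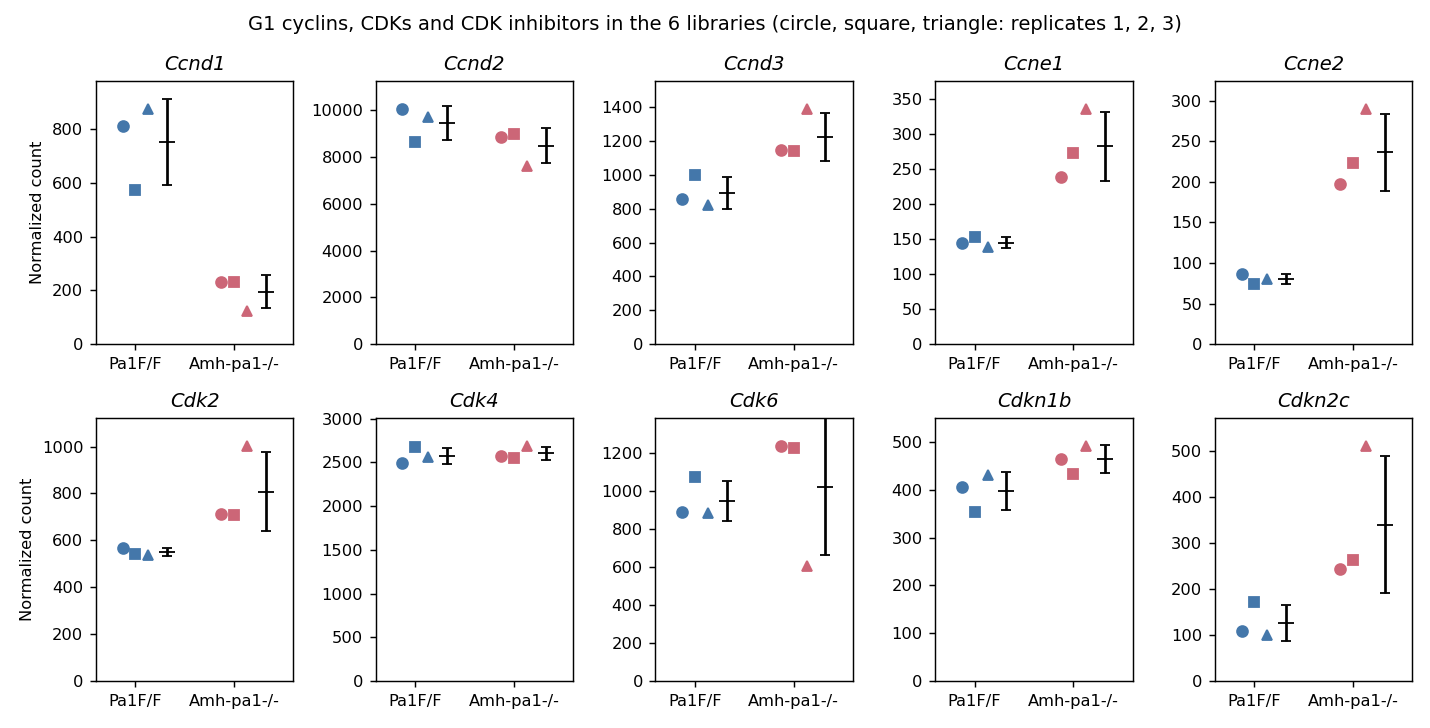
Normalized counts (vertical axes, from 0) of the 10 genes in each Pa1F/F (blue) and Amh-pa1-/- (red) library, with the mean and SD of each genotype in black. Ccnd1 lay between 573 and 875 in Pa1F/F and between 125 and 231 in Amh-pa1-/-, while Ccne1 and Ccne2 lay higher in every Amh-pa1-/- library, and replicate 3 of Amh-pa1-/- lay apart from replicates 1 and 2 for Cdk6 and Cdkn2c.

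Total counts ranged from 14051353 to 16231443 in Pa1F/F and from 13203757 to 15247587 in Amh-pa1-/-. The lowest count of any of the 10 genes in a library was 77 (Ccne2), so no member was near the limit of detection in either genotype. Replicate 3 of Amh-pa1-/- stood apart from replicates 1 and 2: 24.5% of tested genes differed from the mean of these by at least 0.5 on the log2 scale, and of the 10 genes Ccnd1, Cdk6 and Cdkn2c did. Replicate 2 of Pa1F/F differed likewise from replicates 1 and 3 for 13.6% of tested genes, including Ccnd1 and Cdkn2c. The remaining replicates of each genotype were close to each other, with a median absolute log2 ratio of 0.0703 in Pa1F/F and 0.0661 in Amh-pa1-/-. The study's methods call the samples biological replicates, but neither they nor the labels say whether each came from a separate animal or pool, so the p-values measure the spread between these libraries, which may be partly technical.

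The markers of other testicular cells were measured beside these genes. The Sertoli cell genes Sox9 and Wt1 were present in all libraries, between 3172 and 4983 normalized counts for Sox9 and between 4493 and 6084 for Wt1, and of 13 tested Sertoli cell markers 1 was higher (Dmrt1, log2 fold change 0.64) and 4 were lower in Amh-pa1-/- (Sox8 -1.85, Inha -1.23, Gata4 -0.88 and Clu -0.69). The markers of this list summed to between 242099 and 246351 normalized counts in Pa1F/F and between 144744 and 187744 in Amh-pa1-/-, and without Clu, the most abundant, to between 49610.4 and 52246 and between 39052 and 41419.7. The Sertoli cell markers Rhox5 and Trf stayed at or below 15.5 and 6.01 normalized counts. Macrophage markers, of which 7 of 8 tested were lower, summed to between 901 and 1086 normalized counts in Pa1F/F and between 161 and 196 in Amh-pa1-/-. All 3 tested Leydig cell markers were lower, with sums of 11679 to 13399.5 in Pa1F/F and 2423 to 4230 in Amh-pa1-/-, while the Leydig cell markers Cyp17a1 and Insl3 had at most 3 counts in any library. Of 5 tested peritubular myoid cell markers only Acta2 passed, with a log2 fold change of 2.15 and 2537 to 3239 normalized counts in Pa1F/F against 11886 to 15383 in Amh-pa1-/-. With Acta2 the list summed to between 3264 and 4164 in Pa1F/F and to 12679, 12179 and 18639 in Amh-pa1-/- replicates 1, 2 and 3, all above the control. Without Acta2 the sum was 1033, 727 and 925 in Pa1F/F, 367 and 293 in Amh-pa1-/- replicates 1 and 2, and 3255 in replicate 3, and only replicate 3 was then above the control. Of 4 tested endothelial markers 1 was higher and 2 were lower. Spermatogonial markers summed to no more than 89.1 and spermatocyte and spermatid markers to no more than 98.2 in any library. Of 2 tested spermatogonial markers 2 were lower (Ddx4 -1.64 and Gfra1 -1.57, with at most 24 and 46 counts in any library). Of 2 tested spermatocyte and spermatid markers none passed. That list summed to 48.8, 52.9 and 98.2 in Amh-pa1-/- replicates 1, 2 and 3, and to between 37.2 and 56.2 in Pa1F/F. In such bulk samples a different share of a cell type and a different level per cell cannot be told apart, and the part of these cells in the results below was not tested.

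Ccnd1 encodes cyclin D1, the D-type cyclin that most directly follows growth factor signalling. Its normalized counts were 812, 573 and 875 in Pa1F/F replicates 1, 2 and 3 and 230.4, 231 and 125 in the corresponding Amh-pa1-/- replicates. All Amh-pa1-/- libraries lay below all Pa1F/F libraries, and the lowest library of each genotype was the one that stood apart from the others. The mean fell from 753 ± 159 to 196 ± 60.9 normalized counts (SD over 3 libraries of each genotype), which is -1.95 on the log2 scale (SE 0.27, 95% interval -2.58 to -1.31), with an adjusted p of 0.00237 in edgeR's quasi-likelihood test. Without replicate 3 of Amh-pa1-/- the log2 fold change was -1.70, and without both libraries that stood apart it was -1.87. Ccnd1 lies on the minus strand at chr7:144929931-144939925 (GRCm38) and overlaps Oraov1 on the opposite strand by 1771 bp. Oraov1 had a log2 fold change of 0.53 (edgeR adjusted p = 0.0344), opposite in sign to that of Ccnd1. Whether the counting used strand is not given in the sources used here, so reads in such overlaps cannot be assigned with certainty.

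Ccnd2, encoding cyclin D2, did not pass the test. It had 10052, 8658 and 9718 normalized counts in Pa1F/F and 8874, 9001 and 7622 in Amh-pa1-/-. The genotypes overlapped, and the log2 fold change was -0.16 (95% interval -0.38 to 0.06, edgeR adjusted p = 0.231). Ccnd2 (minus strand, chr6:127125162-127152193) was the most abundant of the 10 transcripts per unit of annotated exon length in both genotypes.

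Ccnd3, encoding cyclin D3, often the D-type cyclin of differentiating cells, rose. Its normalized counts were 854.5, 999 and 824 in Pa1F/F and 1146, 1138 and 1387 in Amh-pa1-/-. The genotypes did not overlap, with replicate 3 of Amh-pa1-/- the highest. The log2 fold change was 0.45 (SE 0.11, 95% interval 0.19 to 0.72), with an adjusted p of 0.0188 by edgeR. The call was lost when replicate 1 or 3 of Pa1F/F was left out (edgeR adjusted p of 0.0674 and 0.0713). Ccnd3 (plus strand, chr17:47505051-47599691) overlaps Bysl on the opposite strand by 361 bp, and Bysl had a log2 fold change of 0.31.

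To compare levels between genes, counts were divided by the length of all annotated exons and by the effective library size, giving CPM per kilobase, where CPM scales counts to a common library total. On this scale the summed level of the 3 D-type cyclins was 85.8 ± 6.72 in Pa1F/F and 73.2 ± 5.33 in Amh-pa1-/- (SD, n = 3 each). Cyclin D2 transcripts made up most of it in both genotypes, 79.9% ± 0.622 and 83.8% ± 1.48 of the summed level. Ccnd1 made up 12.4% ± 1.81 of the sum in Pa1F/F and 3.75% ± 0.950 in Amh-pa1-/-, whereas the share of Ccnd3 was 7.73% ± 1.46 and 12.4% ± 2.42. Per kilobase, the order of the lesser D-type cyclins was thus reversed between the genotypes. This reversal rests on the lengths used, 4783 bp for Ccnd1 and 9245 bp for Ccnd3, and no other lengths were tried. In normalized counts, not divided by length, Ccnd3 averaged 893 and Ccnd1 753 in Pa1F/F, and 1224 and 196 in Amh-pa1-/-. Ccnd3 was then below Ccnd1 only in Pa1F/F replicate 3.

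The within-library ratio of the Ccnd1 level to the Ccnd3 level was 1.84, 1.11 and 2.05 in Pa1F/F and 0.389, 0.392 and 0.175 in Amh-pa1-/-. On this per-kilobase scale Ccnd1 exceeded Ccnd3 in every Pa1F/F library and in none of the Amh-pa1-/- libraries. The lengths used set the size of a ratio but not its fold difference between the genotypes. The ratio of Ccnd1 to Ccnd2 was 0.159, 0.130 and 0.177 in Pa1F/F and 0.0511, 0.0505 and 0.0323 in Amh-pa1-/-, again with no overlap. An exact two-sided permutation test gave p = 0.1 for each of these ratios, the smallest p that 3 against 3 libraries allow, and 0.12 after Benjamini-Hochberg adjustment over the 6 ratios compared.

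**Figure D2:**
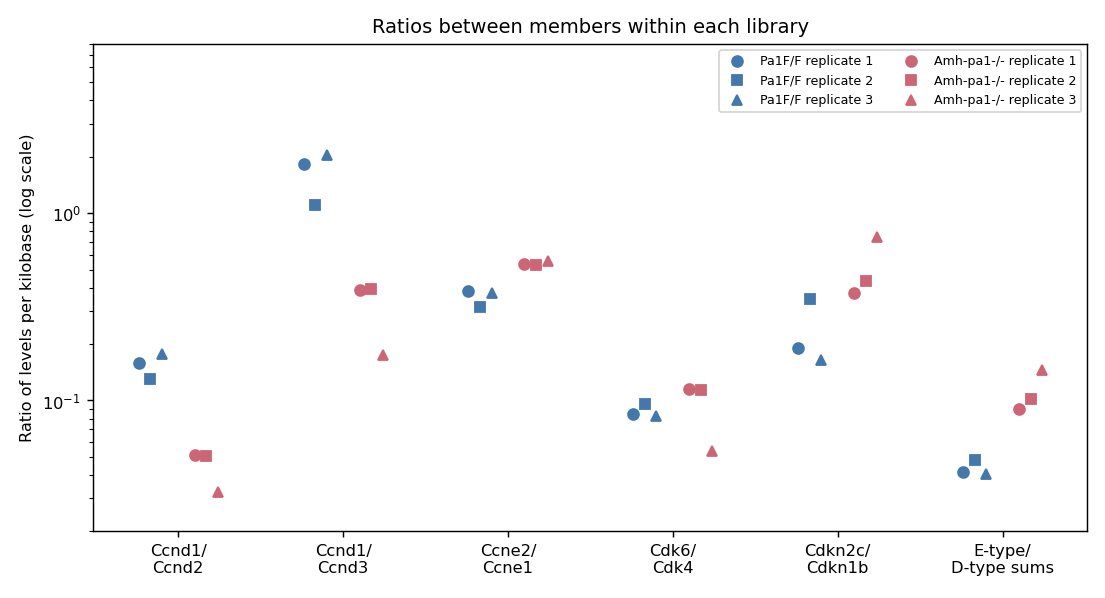
Ratios of levels per kilobase between members within each library, on a logarithmic vertical axis, for Pa1F/F (blue) and Amh-pa1-/- (red), with circles, squares and triangles for replicates 1, 2 and 3. The ratio of Ccnd1 to Ccnd3 lay between 1.11 and 2.05 in Pa1F/F and between 0.175 and 0.392 in Amh-pa1-/-, and only the ratio of Cdk6 to Cdk4 overlapped between the genotypes.

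Cdk4 and Cdk6 encode the kinase partners of the D-type cyclins. Cdk4 had 2495, 2674 and 2560.1 normalized counts in Pa1F/F and 2569, 2556 and 2689 in Amh-pa1-/-. All libraries lay close together, and the genotypes overlapped. Its log2 fold change was 0.02 with a 95% interval of -0.11 to 0.14, and the adjusted p was 0.833 by edgeR. Cdk4 (plus strand, chr10:127063534-127067920) overlaps Tspan31, on the opposite strand, by 641 bp.

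Cdk6 did not pass the test over all 6 libraries, and its level in Amh-pa1-/- depended on the library. The normalized counts were 886, 1069.9 and 882 in Pa1F/F and 1236, 1223 and 604 in Amh-pa1-/-. Replicates 1 and 2 of Amh-pa1-/- were the highest of all libraries and replicate 3 the lowest. Replicate 3 stood at -1.03 on the log2 scale relative to the mean of replicates 1 and 2. Over all libraries the log2 fold change was 0.11 (95% interval -0.52 to 0.74, edgeR adjusted p = 0.775). Without replicate 3 it was 0.38 with an edgeR adjusted p of 0.0162, and without replicate 1 or 2 of Amh-pa1-/- it was -0.047 or -0.025, where the gene did not pass. The ratio of the Cdk6 level to the Cdk4 level was between 0.0822 and 0.0954 in Pa1F/F, 0.115 and 0.114 in Amh-pa1-/- replicates 1 and 2, and 0.0536 in replicate 3. Cdk6 lies on the plus strand at chr5:3341485-3531008.

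Among the inhibitors, Cdkn2c rose. This INK4 gene (minus strand, chr4:109660876-109667189) had 109, 171 and 99.6 normalized counts in Pa1F/F and 243, 264 and 511 in Amh-pa1-/-. The genotypes did not overlap, and the highest library of each genotype was the one that stood apart. The means were 127 ± 39.1 and 339 ± 149 (SD, n = 3 each), and the log2 fold change was 1.42 (SE 0.35, 95% interval 0.60 to 2.24), with an edgeR adjusted p of 0.0193. Without replicate 3 of Amh-pa1-/- the log2 fold change was 1.0, with an edgeR adjusted p of 0.0113. The call was lost without replicate 1 or 3 of Pa1F/F (edgeR adjusted p of 0.0728 and 0.0721).

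Cdkn1b, the KIP inhibitor gene, had 406, 353 and 432 normalized counts in Pa1F/F and 466, 434 and 492 in Amh-pa1-/-. The lowest Amh-pa1-/- library was just above the highest Pa1F/F library, yet the gene did not pass the test, with a log2 fold change of 0.22 (95% interval -0.02 to 0.47) and an edgeR adjusted p of 0.133. The ratio of the Cdkn2c level to the Cdkn1b level was 0.192, 0.347 and 0.165 in Pa1F/F and 0.374, 0.435 and 0.744 in Amh-pa1-/-. It was thus higher in every Amh-pa1-/- library, with an exact permutation p of 0.1, the smallest possible (adjusted 0.12). Cdkn1b is on the plus strand at chr6:134920401-134925513, and no other listed gene overlaps Cdkn1b, Cdkn2c or Ccne1.

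Both E-type cyclins rose in Amh-pa1-/- cells. Ccne1, encoding cyclin E1, had 144, 153 and 138 normalized counts in Pa1F/F and 238, 274 and 336 in Amh-pa1-/-. The control libraries lay close together, and every Amh-pa1-/- library was above them. The means were 145 ± 7.33 and 283 ± 49.3 (SD, n = 3 each), a 1.95-fold difference with a log2 fold change of 0.96 (SE 0.15, 95% interval 0.61 to 1.31) and an edgeR adjusted p of 0.00337. Ccne1 lies on the minus strand at chr7:38097984-38107534.

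Ccne2, encoding cyclin E2, had 86.1, 74.6 and 80.8 normalized counts in Pa1F/F and 197, 223 and 289.6 in Amh-pa1-/-. The lowest Amh-pa1-/- library was far above the highest control library. The means were 80.5 ± 5.77 and 237 ± 47.7 (SD, n = 3 each), a 2.94-fold difference with a log2 fold change of 1.55 (SE 0.17, 95% interval 1.15 to 1.96) and an edgeR adjusted p of 0.00106. Without replicate 3 of Amh-pa1-/-, the highest library for both E-type cyclins, the log2 fold changes were 0.82 for Ccne1 and 1.38 for Ccne2. Ccne2 (plus strand, chr4:11191351-11204779) overlaps Ints8 on the opposite strand by 5622 bp, and Ints8 had a log2 fold change of 0.30 (edgeR adjusted p = 0.0248).

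Per kilobase, the summed level of the E-type cyclins was 3.70 ± 0.107 in Pa1F/F and 8.16 ± 1.5 in Amh-pa1-/- (SD, n = 3 each). Ccne2 made up 26.4% ± 2.13 of it in Pa1F/F and 35.0% ± 0.672 in Amh-pa1-/-, and its ratio to Ccne1 was between 0.314 and 0.385 in Pa1F/F and between 0.526 and 0.557 in Amh-pa1-/-. The ratio of the summed E-type level to the summed D-type level was 0.0414, 0.0483 and 0.0403 in Pa1F/F and 0.0904, 0.102 and 0.146 in Amh-pa1-/-. The D-type sum exceeded the E-type sum in every library, but by less in each Amh-pa1-/- library. The exact permutation p was 0.1 for both ratios, the smallest possible (adjusted 0.12).

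Cdk2, the kinase partner of the E-type cyclins, also rose. Its normalized counts were 569, 541 and 538 in Pa1F/F and 711, 709 and 1003 in Amh-pa1-/-. The genotypes did not overlap, and replicates 1 and 2 of Amh-pa1-/- were nearly equal while replicate 3 was higher. The means were 549 ± 17.1 and 807 ± 169 (SD, n = 3 each), with a log2 fold change of 0.56 (SE 0.14, 95% interval 0.21 to 0.90) and an edgeR adjusted p of 0.0242. Without replicate 3 of Amh-pa1-/- the log2 fold change was 0.37, with an edgeR adjusted p of 0.00426. The call was lost when any 1 of the Pa1F/F libraries was left out (edgeR adjusted p of 0.0662, 0.0637 and 0.0801 without replicates 1, 2 and 3). Cdk2 lies on the minus strand at chr10:128697939-128705031 and overlaps Pmel, on the opposite strand, by 837 bp.

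**Figure D3:**
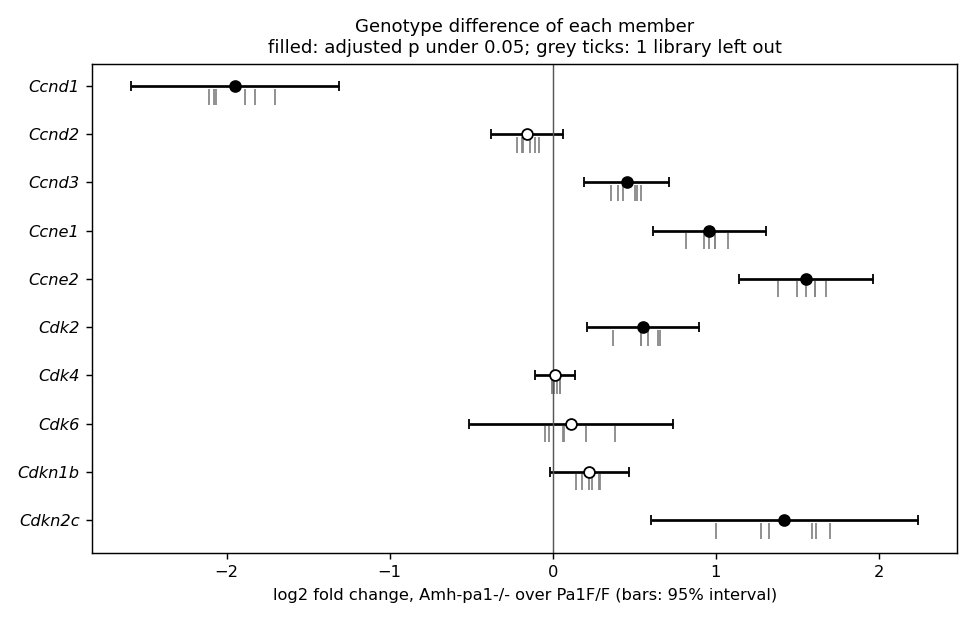
Log2 fold change of Amh-pa1-/- over Pa1F/F (horizontal axis) for each of the 10 genes, with the 95% interval as a bar, filled points for an adjusted p under 0.05, and grey ticks for the values with 1 library left out. Ccnd1 lay at -1.95, Ccne2 at 1.55 and Cdkn2c at 1.42, and the ticks of Cdk4 and Cdk6 fell on both sides of 0.

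In Pa1F/F the order of levels in CPM per kilobase was Ccnd2 (68.5), Cdk4 (50.9), Ccnd1 (10.7), Ccnd3 (6.57), Cdkn1b (5.93), Cdk2 (5.92), Cdk6 (4.46), Ccne1 (2.72), Cdkn2c (1.35) and Ccne2 (0.974). Only the neighbours Ccnd3 and Cdkn1b, and Cdkn1b and Cdk2, overlapped in their values over the libraries. In Amh-pa1-/- the order was Ccnd2 (61.4), Cdk4 (51.5), Ccnd3 (9.0), Cdk2 (8.70), Cdkn1b (6.93), Ccne1 (5.30), Cdk6 (4.82), Cdkn2c (3.63), Ccne2 (2.86) and Ccnd1 (2.78). Here Ccnd3 overlapped with Cdk2, and the neighbours from Ccne1 down to Ccnd1 each overlapped with the next. On this scale Ccnd1 thus stood at rank 3 in Pa1F/F and at rank 10, not separable from Ccne2, in Amh-pa1-/-. The order also depends on the exon lengths used, from 3440 bp (Cdk4) to 14421 bp (Cdk6), and no other lengths were tried.

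Because E2F factors are known activators of several G1/S genes and AP-1 and CREB act on growth-responsive promoters, the RefSeq promoter windows (GRCm38.p6, 250 bases before to 50 after the start) were searched on both strands for the E2F words TTTGGCGC, TTTGCCGC, TTTCGCGC and TTTCCCGC, the AP-1 word TGANTCA and the CRE word TGACGTCA. The E2F words were held by 2.26%, the AP-1 word by 7.81% and the CRE word by 1.79% of 32851 windows of the same length. Windows were given for 7 of the 10 genes, but not for Ccnd1, Ccnd2 and Ccne2. Of the 7, Cdk2 held an E2F word, TTTCCCGC read on the strand opposite to the gene, and no other match was found. The stretch around it, from 200 to 51 bases before the RefSeq start, is shown because Cdk2 was the only one of the 7 with a match, which is marked in capitals (RefSeq, chr10:128705102-128705251, minus strand, 5′ to 3′). The stretch has a GC content of 68% and holds 15 CG dinucleotides.
Cdk2: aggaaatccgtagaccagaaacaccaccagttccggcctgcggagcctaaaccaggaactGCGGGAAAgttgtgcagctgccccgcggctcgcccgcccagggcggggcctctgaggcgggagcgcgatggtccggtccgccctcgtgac
The match is a description of letters and not of binding, which was not measured.

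The other genes of the G1/S network were examined by lists, whose counts are to be read against the 18.2% of all tested genes that passed as higher and the 17.1% that passed as lower. Like the members, the lists were chosen with earlier results of these data known, so their counts are not an independent check. Of 4 tested other CDK inhibitors, 1 rose and 1 fell, with a median log2 fold change of -0.19. Cdkn2d, an INK4 gene like Cdkn2c, rose from 152, 177 and 155 normalized counts in Pa1F/F to 319, 323 and 503 in Amh-pa1-/- (log2 fold change 1.24, SE 0.20, edgeR adjusted p = 0.00409). Cdkn2b, the INK4 gene known for its response to TGF-β, fell from 1094, 1115 and 1049 to 844, 834 and 603 (log2 fold change -0.51, SE 0.13, edgeR adjusted p = 0.0227). The Cdkn2b call was lost when any 1 Pa1F/F library was left out, whereas that of Cdkn2d held with any 1 library left out. Of the INK4 family, Cdkn2a had a log2 fold change of -0.09 (edgeR adjusted p = 0.718). Cdkn1a, the KIP gene best known as a p53 target, had 3849, 3827 and 3719 normalized counts in Pa1F/F and 3823, 3809 and 1661 in Amh-pa1-/-. Only replicate 3 of Amh-pa1-/- differed from the other libraries of Cdkn1a, and the gene did not pass the test (edgeR adjusted p = 0.470).

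Of 13 pocket protein and E2F/DP genes, 7 rose, 1 fell and 5 did not pass, with a median log2 fold change of 0.23. The largest of these changes was that of E2f7, a repressor of the E2F family, from 93.3, 75.5 and 88.1 normalized counts in Pa1F/F to 541, 507 and 653 in Amh-pa1-/- (log2 fold change 2.72, SE 0.14, edgeR adjusted p = 8.84e-05). The related repressor E2f8 rose by 1.81, and the activators E2f2 and E2f1 by 1.49 and 0.90 on the log2 scale. Of the pocket proteins, Rbl1 rose by 1.61, Rbl2 had a log2 fold change of -0.33 (edgeR adjusted p = 0.0458), and Rb1 one of -0.15 (edgeR adjusted p = 0.185). The Rbl2 call was lost without any 1 Pa1F/F library and without Amh-pa1-/- replicate 1 or 2. The E2f1 change had an edgeR adjusted p of 0.0144 and was lost without Pa1F/F replicate 1 or 3, and those of E2f2, E2f8 and Rbl1 had lower values.

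Of 19 genes of CDK activation and of cyclin or inhibitor turnover, 4 rose, 4 fell and 11 did not pass, with a median of 0.31, shares near those of all tested genes (18.2% and 17.1%). Of these, 2 rose without Pa1F/F replicate 1 and 1 without Pa1F/F replicate 3, and 2 fell without either of these or without Amh-pa1-/- replicate 1 or 2. Fbxo5, an inhibitor of the anaphase-promoting complex, had a log2 fold change of 1.65, Cks1b, a cofactor of Cdkn1b protein degradation, of 0.80, Ccnf, an F-box cyclin, of 0.81, and Mnat1, an assembly factor of the CDK-activating kinase, of 0.33. With each library left out in turn, Fbxo5 and Cul1 passed in every case, while the other named genes of this list did not. Among those that fell, Cul1, the SCF scaffold, had a log2 fold change of -0.38, Fbxw7, the F-box protein known to target cyclin E, of -0.29, Ambra1, a substrate receptor for D-type cyclins, of -0.28, and Cdk7, the catalytic subunit of the CDK-activating kinase, of -0.30.

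Downstream of G1, 17 of 20 S phase genes rose, none fell and 3 did not pass, with a median log2 fold change of 0.85. With the close pairs of libraries summed, 9 of the 20 rose. The summed normalized counts of all 20 lay between 11358 and 12627 in Pa1F/F and were 17862, 18072 and 21677 in Amh-pa1-/-. Examples were the replication clamp gene Pcna (0.81), the thymidine kinase gene Tk1 (0.96), the polymerase α gene Pola1 (1.11) and the ribonucleotide reductase gene Rrm2 (1.21). Of 15 mitosis genes 8 rose and 7 did not pass, with a median of 1.05, and 15 rose with both libraries that stood apart left out, but 1 (Mki67) with the close pairs of libraries summed. Mki67, the proliferation marker, rose from 805, 1298 and 826 to 2956, 3088 and 4313 normalized counts (log2 fold change 1.82, SE 0.23, edgeR adjusted p = 0.00173), and Ttk, Aurkb and Bub1, all of the mitotic checkpoint and chromosome machinery, by 1.65, 1.33 and 1.32 on the log2 scale. Summed mitosis genes reached 18384 in replicate 3 of Amh-pa1-/-, against 10929.7 and 11280.2 in replicates 1 and 2 and 4544 to 7907 in Pa1F/F.

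Of 4 tested S, G2 and M cyclins and Cdk1, Ccna2, encoding cyclin A2, passed over all 6 libraries, with 280.0, 439 and 249 normalized counts in Pa1F/F and 698, 741 and 1139 in Amh-pa1-/- (log2 fold change 1.41, SE 0.27, edgeR adjusted p = 0.00801). Cdk1 had a log2 fold change of 0.46 (edgeR adjusted p = 0.0501). Ccnb1 had 229, 460 and 223 normalized counts in Pa1F/F and 429, 403 and 912 in Amh-pa1-/-, with overlapping genotypes and an edgeR adjusted p of 0.120. Without Pa1F/F replicate 2, all 4 genes (Ccna2, Ccnb1, Ccnb2 and Cdk1) passed as higher. In Ccna2, Cdk1 and Ccnb1 the highest library of each genotype was the one that stood apart.

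Of 15 upstream regulators of G1 genes, 3 rose, 6 fell and 6 did not pass, with a median of 0.07, and 6 rose without Amh-pa1-/- replicate 3. Mybl2 and Foxm1, transcription factors of the G1/S and G2/M programmes, had log2 fold changes of 1.78 and 1.53, and Igf1r, the receptor of insulin-like growth factors, of 0.58. Mycn, a MYC family gene, fell from 238, 359 and 272 normalized counts in Pa1F/F to 59.5, 58.6 and 76.2 in Amh-pa1-/-, a log2 fold change of -2.16 (SE 0.20, edgeR adjusted p = 0.000570). Foxo3 and Foxo1, factors known to favour quiescence, had log2 fold changes of -0.79 and -0.51, and Smad3, a mediator of TGF-β signals, of -0.54. All of these named genes passed the test, but Igf1r did not without Amh-pa1-/- replicate 1.

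Of 22 cyclin and CDK genes with roles outside the cell cycle engine, 3 rose, 5 fell and 14 did not pass, with a median of -0.07, near the shares of all tested genes (18.2% and 17.1%). Without Pa1F/F replicate 1 or 3, or without Amh-pa1-/- replicate 1, 3 genes fell, and 7 rose with both libraries that stood apart left out. Cdk5, a kinase best known in neurons, fell by 1.10 on the log2 scale, and Cdk14, Ccnl2 and Cdk12 by 0.83, 0.54 and 0.35. Ccnc and Cdk19, both of the Mediator kinase module, rose by 0.58 and 0.32, and Ccni by 0.22. The Ccni call held with 1 library left out only when that was Amh-pa1-/- replicate 3, and the Cdk12 call was lost without Pa1F/F replicate 1 or 3 or Amh-pa1-/- replicate 1.

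**Figure D4:**
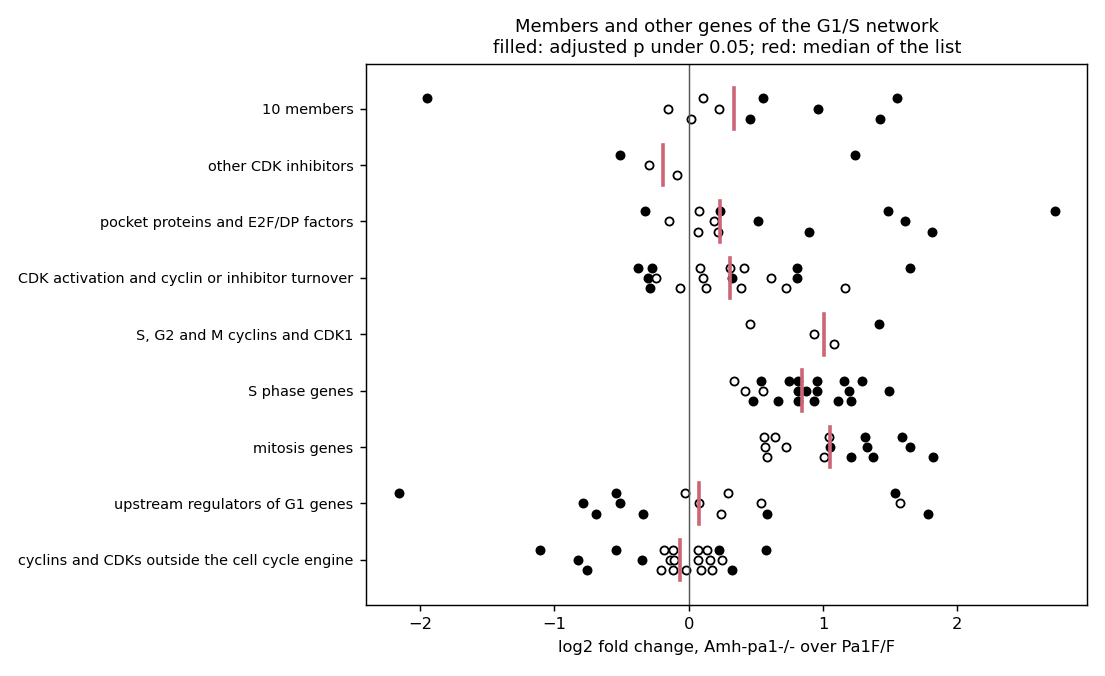
Log2 fold changes of Amh-pa1-/- over Pa1F/F (horizontal axis) for the 10 genes and for each list of network genes, 1 point per tested gene, filled at an adjusted p under 0.05, with the median of the list in red and that of all tested genes as a grey line. No S phase or mitosis gene fell, and the median was 0.85 for S phase and 1.05 for mitosis genes.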

How the data were processed

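Trizol-extracted total RNA was made into NEBNext Ultra libraries and sequenced on an Illumina HiSeq. The authors aligned reads to GRCm38 with HISAT2 2.1.0 and deposited counts per gene from HTSeq 0.6.0, without normalization. The table also holds the authors' own comparison, which was not used. From the counts, genes were filtered with filterByExpr of edgeR 4.0.16 in R 4.3.3 (minimum count 10, minimum total 15), normalized with TMM (factors 0.990 to 1.03) and tested by genotype with the quasi-likelihood test, adjusting by Benjamini-Hochberg over 14919 genes. Normalized counts are counts per effective library size times its mean. Exon lengths came from a later annotation (GENCODE). Named network genes were the up to 4 of smallest adjusted p per direction and list, plus 11 always named. Members and lists were chosen with earlier results of these data known. The replicate number as a block, other normalizations, filters, DESeq2 1.42.0, limma 3.58.1 and left-out libraries were tried. In simulated counts with a log2 fold change of 2, 99.5% of 198 changed genes among 14880 were recovered. These counts had the same dispersion for every gene, no library that stood apart and a change larger than that of any member. The recovery therefore does not carry over to the members. Reads are not independent molecules, so depth covers counting error only.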

Additional observations from a re-analysis of the deposited data

How the results depend on the processing

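Over the 15 alternatives that test a change from 0, Ccnd1, Ccne1 and Ccne2 kept their direction and passed in all, with log2 fold changes of -2.11 to -1.70, 0.82 to 1.07 and 1.32 to 1.67. Cdkn2c passed in 12, and Ccnd3 and Cdk2 in 11 each, and with close pairs of libraries summed these had edgeR adjusted p of 0.101, 0.114 and 0.0989. The number of members that rose was 5, and 2 to 6 with 1 library left out, 2 with the close pairs of libraries summed into 1 (Ccne1 and Ccne2), and 1 when changes beyond 1 on the log2 scale were tested (glmTreat, Ccne2). The number that rose by at least 1 was 2, and 1 to 3 with 1 library left out and 1 under glmTreat. With both libraries that stood apart left out, 2 members fell (Ccnd1, and Ccnd2 at -0.15), and Cdk6 rose by 0.47. The sign of Cdk4 turned without Pa1F/F replicate 1 (-0.0030) and without Amh-pa1-/- replicate 3 (-0.0055), and that of Cdk6 without Amh-pa1-/- replicate 1 (-0.047) or 2 (-0.025) and with close pairs summed (-0.068). With 1 library left out, Cdk4 ranged from -0.0055 to 0.045 and Cdk6 from -0.047 to 0.38. Neither passed where its sign turned, and the cause was not tested. Without Amh-pa1-/- replicate 3 the log2 fold changes of Cdk2 and Cdkn2c were 0.37 and 1.0.

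With the replicate number as a block, 4 members rose and 1 fell, Ccnd3 being lost (edgeR adjusted p = 0.0541), and 1917 genes rose and 1885 fell against 2718 and 2548 without it. Deviations of same-numbered libraries correlated at 0.11, -0.16 and -0.18. The deviations of the libraries that stood apart, Pa1F/F replicate 2 and Amh-pa1-/- replicate 3, correlated at 0.214. Those of Pa1F/F replicates 1 and 3 with Amh-pa1-/- replicates 1 and 2 correlated at 0.108 to 0.150. Deviations from a mean of 3 libraries are tied to each other, so these correlations cannot decide whether the numbers pair the samples. Over all tested genes, 1761 rose and 1689 fell without Pa1F/F replicate 1, 1762 and 1760 without Pa1F/F replicate 3, 708 and 674 with close pairs summed, 4188 and 4078 with both apart libraries left out, and 232 and 306 under glmTreat. The lowest count of a member was 77. Between libraries of a genotype, the spread over tested genes was set against counting error as a chi-square per degree of freedom, which is near 1 for counting error alone. It was 2.22 for Pa1F/F replicates 1 and 3 and 1.66 for Amh-pa1-/- replicates 1 and 2, against 18.3 to 29.8 for the other pairs. The close pairs thus held little spread beyond counting error.

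The counts of the network lists moved too. With close pairs summed, 9 S phase genes rose (17 over all libraries), 1 mitosis gene (Mki67, against 8), 4 pocket protein and E2F/DP genes (against 7) and 1 gene of CDK activation and turnover (against 4), of which 0 fell (against 4). In that fit no other CDK inhibitor, Cdkn2d included, and none of the S, G2 and M cyclins or Cdk1 passed, 1 cyclin or CDK outside the engine rose (Ccnc, against 3) and 1 fell (against 5), and 1 upstream regulator rose (Mybl2, against 3) and 3 fell (Foxo3, Mycn and Smad3, against 6), so that Foxm1, Igf1r and Foxo1 were lost. With both apart libraries left out, 20 S phase and 15 mitosis genes rose, and 11 genes of CDK activation and turnover. Under glmTreat, 1 mitosis gene and 0 S phase genes rose. Of the S, G2 and M cyclins and Cdk1, 4 rose by DESeq2's Wald test, 3 without a filter, and 2 by limma-voom or with DESeq2 size factors. Of the CDK activation and turnover genes, 1 fell (Cul1) with the replicate block or without a filter. Rbl2 was also lost with library size only, without a filter and with close pairs summed.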

Other observations

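Among genes outside the 10, replicate 3 of Amh-pa1-/- differed from both other libraries of its genotype in Cdkn1a (1661 against 3823 and 3809 normalized counts), Amh (365 against 43.9 and 48.4) and Kdr (485 against 80.0 and 74.4). Of the genes described above, Cdk6 and Ccnd1 were lower in this library and Cdkn2c, Cdk2, Ccnb1 and Mki67 were higher. The sum of peritubular myoid markers without Acta2, given above, was also higher in it. These genes were chosen after their values were seen, and the part of this library's makeup in the values was not tested.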
